A study of Mus musculus with 34 samples.

Results

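The 4 Hox gene clusters were followed in mouse embryonic stem cells from B6 mice (C57BL/6J) and D2 mice (DBA/2J), which carried either the normal chromosome 13 of their strain or a segment of it from the other strain. Regions of the deposited count tables were taken as members when their start lay in 1 of 4 intervals of the mouse genome build GRCm38: 52150000 to 52270000 on chromosome 6 (HoxA), 96190000 to 96375000 on chromosome 11 (HoxB), 102915000 to 103040000 on chromosome 15 (HoxC) and 74660000 to 74770000 on chromosome 2 (HoxD). The list of regions shared by 3 of the tables held 118 such regions of 248336, with 28 in HoxA, 40 in HoxB, 24 in HoxC and 26 in HoxD. The H3K27ac table of the separate lines had its own list, and 41 of its 96988 regions were members, with 12, 10, 15 and 4 in the same order. They covered 38 Hox genes.

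Hox genes encode homeodomain transcription factors that give cells their position along the body axis, and within a cluster they lie in the order in which they are used from head to tail. Genes of the same number in different clusters, called paralogs, descend from 1 ancestral gene. In embryonic stem cells the clusters are a textbook target of Polycomb repression and are opened in sequence by retinoic acid, WNT and CDX factors during differentiation. H3K27ac is a mark of active promoters and enhancers, and H3K9me3 a mark of heterochromatin.

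Both marks were measured by chromatin immunoprecipitation and sequencing, in 34 libraries that fell into 12 groups. In the series of separate lines, each strain was represented by 3 lines per mark, which are biological replicates. In the series of repeated libraries, 1 line of each of 4 genotypes was sequenced repeatedly: B6, D2, B6-13D2 (strain B6.D2-(rs30079041-rs51756099)/Bakr, a D2 segment of chromosome 13 on a B6 background) and D2-13B6 (strain D2.B6-(rs29224292-rs13469455)/Bakr, a B6 segment on a D2 background). The medium of all lines held serum and LIF together with MEK and GSK3 inhibitors, and none of the Hox clusters lies on chromosome 13. The repeated B6 and D2 lines are also among the separate lines, as B6 replicate 3 and D2 replicate 2, so the 2 series are not independent. Because the repeated libraries are technical replicates of 1 line, a test among them compares lines and not genotypes, and its p-value measures only the spread between libraries.

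Counted reads per library of the separate lines numbered 1487862 to 2559262 (H3K9me3) and 15444270 to 18272793 (H3K27ac). Repeated libraries had 1538145 to 2185977 and 8735674 to 11543469. In the repeated H3K27ac libraries, 1 pair per genotype differed by less than sampling noise, so the pair was counted as 1 sample, so n = 2 per genotype in tests, while the values of all 3 libraries are given below. Replicate 1 of D2-13B6 stood apart from its other libraries for both marks, with a chi-square per degree of freedom of 2.46 and 2.47 for H3K9me3 and 2.81 and 2.79 for H3K27ac, against 1.21 and 0.905 between the other two. Levels are in CPM, the counts scaled to library size (edgeR's CPM) after TMM scaling, which corrects for differences in composition between libraries. They are compared within a table only, since the tables were scaled separately and different H3K27ac antibodies were used, an abcam one for the separate lines and a Cell Signaling Technology one for the repeats. Called regions are those with an adjusted p below 0.05 in edgeR's quasi-likelihood test with Benjamini-Hochberg adjustment over all tested regions of the table. Every adjusted p below comes from that test unless DESeq2, another test for counts, is named. Counts of Hox regions in DESeq2, in other alternative fits or at an unadjusted p under 0.05 are given without the share of all regions. They show how the number of calls varies and are no measure against the background.

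Embryonic stem cell markers carried much H3K27ac at their promoters, with a summed level over 12 genes of 1118 to 1262 CPM in B6 and 1354 to 1535 in the other repeated lines, and over 11 genes of 2499 to 2804 CPM in the separate lines. No labels mention feeder cells. Promoter regions of fibroblast markers differed among the repeated lines, and their values are given beside the H3K27ac results of those lines.

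The sequences on which the results turn are shown from the reference genome (GRCm38.p6, RefSeq), which is that of B6, with each CpG dinucleotide in capitals. The first 3 are the 300 bases before the annotated start of Hoxa13 (chr6:52260881-52261180, minus strand), Hoxa10 (chr6:52234940-52235239, minus strand) and Hoxc13 (chr15:102920803-102921102, plus strand), where 1 or both marks differed between B6 and D2. The others are the central 300 bases of an H3K9me3 region over the coding exon of Hoxb2 (chr11:96353007-96353306) and of a region past the Hoxc4 end of HoxC, where H3K27ac of D2 was lower in both series (chr15:103041746-103042045), both on the plus strand.
Hoxa13 promoter: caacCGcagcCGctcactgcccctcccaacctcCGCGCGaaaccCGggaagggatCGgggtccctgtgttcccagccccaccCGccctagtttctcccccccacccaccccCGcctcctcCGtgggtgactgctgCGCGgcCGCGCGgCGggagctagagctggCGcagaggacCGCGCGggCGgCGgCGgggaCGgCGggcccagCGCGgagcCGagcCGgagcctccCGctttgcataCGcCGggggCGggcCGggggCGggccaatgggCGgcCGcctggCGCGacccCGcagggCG
Hoxa10 promoter: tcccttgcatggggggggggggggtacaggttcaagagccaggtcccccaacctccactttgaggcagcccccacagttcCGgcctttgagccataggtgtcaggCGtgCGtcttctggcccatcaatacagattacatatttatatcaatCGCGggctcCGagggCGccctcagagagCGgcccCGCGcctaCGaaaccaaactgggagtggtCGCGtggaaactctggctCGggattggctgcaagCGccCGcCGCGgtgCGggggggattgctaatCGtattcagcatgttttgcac
Hoxc13 promoter: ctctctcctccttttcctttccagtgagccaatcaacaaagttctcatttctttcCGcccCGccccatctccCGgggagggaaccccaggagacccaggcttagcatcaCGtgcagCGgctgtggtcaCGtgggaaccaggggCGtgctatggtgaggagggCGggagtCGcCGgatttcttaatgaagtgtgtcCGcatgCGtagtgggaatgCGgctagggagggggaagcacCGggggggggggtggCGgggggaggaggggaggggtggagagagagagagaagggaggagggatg
Hoxb2 region: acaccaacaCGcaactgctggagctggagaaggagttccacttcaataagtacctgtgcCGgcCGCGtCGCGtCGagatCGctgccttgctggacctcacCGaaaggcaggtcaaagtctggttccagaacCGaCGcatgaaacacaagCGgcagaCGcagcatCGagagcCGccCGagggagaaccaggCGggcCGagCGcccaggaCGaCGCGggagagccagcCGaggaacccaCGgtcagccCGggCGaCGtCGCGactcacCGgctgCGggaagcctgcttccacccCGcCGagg
HoxC end region: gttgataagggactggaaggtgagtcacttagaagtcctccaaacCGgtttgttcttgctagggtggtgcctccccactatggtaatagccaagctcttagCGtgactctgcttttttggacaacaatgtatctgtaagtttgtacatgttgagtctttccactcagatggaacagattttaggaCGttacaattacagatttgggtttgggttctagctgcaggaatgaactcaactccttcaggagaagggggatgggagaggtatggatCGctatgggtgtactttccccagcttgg

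The Hoxa13 stretch held 41 CpG dinucleotides, more than 96.7% of 21931 promoter windows of the same length, whose median was 10. Hoxa10 held 20 and Hoxc13 held 15, against 33 in the Hoxb2 stretch and 4 in the HoxC end region. On either strand, none of the 5 held TAATTA, a homeodomain core found in 5.59% of promoter windows, or TTTATG, a core bound by CDX factors found in 11.7%. The nuclear receptor half-site AGGTCA, found in 15% of windows, was present in the Hoxb2 stretch only. A match or its absence describes these letters and does not show binding.

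Levels in the clusters differed by mark and by cluster. For H3K27ac, the median Hox region stood at 3.11 CPM per kb in the separate lines, above 60.1% of all regions of that list, and at 1.80 CPM per kb in the repeated libraries, above 47.2%. HoxD was the lowest cluster in both, above 23.7% and 26.7% of all regions. For H3K9me3, the median Hox region stood above 45.3% of all regions in the separate lines and above 75.6% in the repeated libraries, where HoxB was highest at 84.5%. Across the 118 regions, H3K9me3 and H3K27ac levels in the repeated libraries had a Spearman correlation of -0.06, a description over regions that share libraries and differ in width.

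The region with most H3K27ac per kb in HoxB lay over the noncoding gene Gm53 (chr11:96250239-96252950), between Hoxb13 and Hoxb9, and in the repeated libraries held 40.0, 41.1 and 47.2 CPM in B6, 43.4, 42.8 and 46.4 in B6-13D2, 50.7, 46.7 and 50.6 in D2 and 50.5, 49.1 and 47.2 in D2-13B6. The lines were close there, and none of the contrasts was called. In the separate lines, the wider Gm53 region (chr11:96247793-96257146) held 50, 48.6 and 48.1 CPM in B6 and 46.8, 51.1 and 56.2 in D2, which overlap.

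In HoxA the highest region lay over Hotairm1 (chr6:52157507-52159768), a noncoding RNA gene at the retinoic acid responsive end of the cluster, with 13.6, 16.0 and 17.3 CPM in B6, 19.3, 19.1 and 21.5 in B6-13D2, 22.9, 23.4 and 26.7 in D2 and 16.3, 23.7 and 22.5 in D2-13B6. D2 lay above B6 in every library and was called, with a log2 fold change of 0.61 (SE 0.15, adjusted p = 0.0019). In the separate lines the region over Hotairm1 held 21.2, 19.7 and 18.6 CPM in B6 and 22.9, 22.4 and 21.6 in D2 and was not called, with a log2 fold change of 0.17 (SE 0.09, adjusted p = 0.10). The highest HoxC region (chr15:102930967-102932763) lay between Hoxc13 and Hoxc12, and that of HoxD, over Hoxd3os1 and introns of Hoxd3 and Hoxd4 (chr2:74713509-74714109), had only 2.31 CPM per kb against 17.1 at Gm53.

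**Figure D1:**
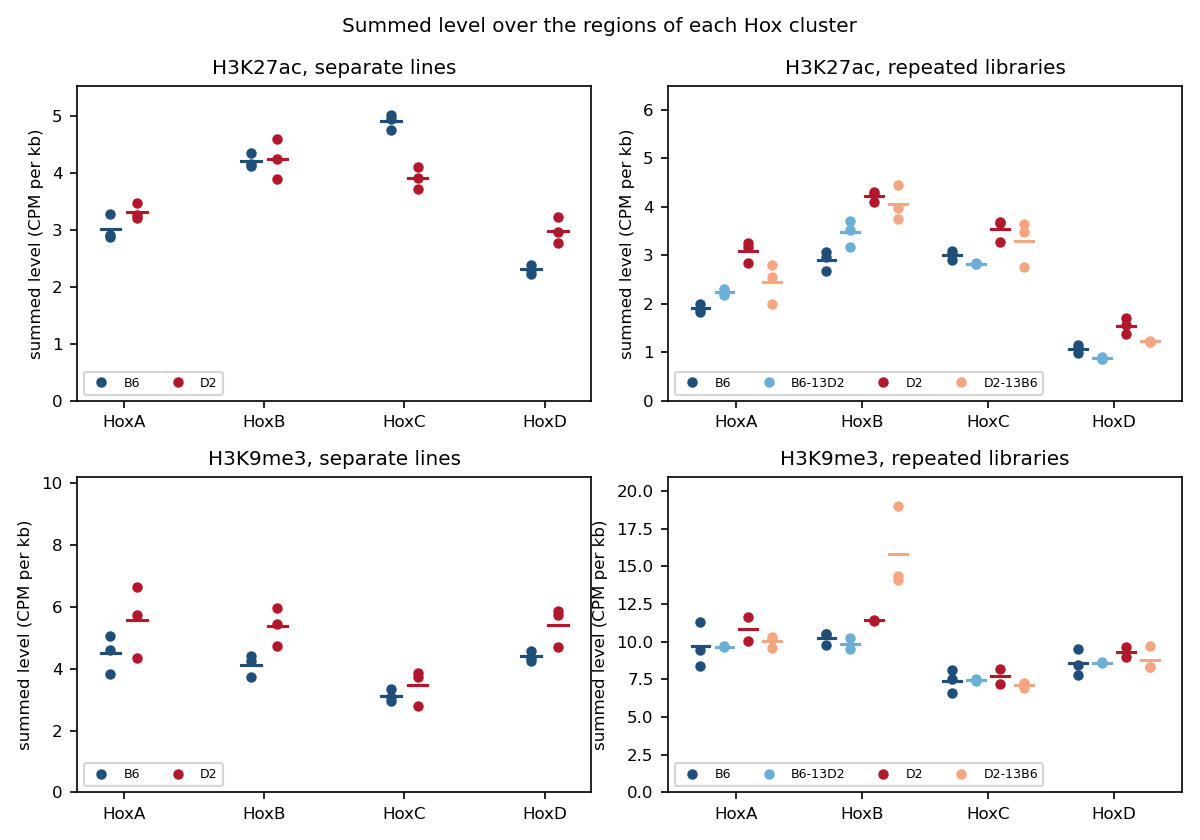
Summed level of each mark over the regions of each Hox cluster, in CPM per kb of region, for every library (points), with the mean of a group as a bar. In the repeated H3K27ac libraries, each of the 4 clusters was higher in the 3 D2 libraries than in the 3 B6 libraries, and in the separate lines HoxC was lower in D2.

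The strain comparison of H3K27ac over the separate lines asked which Hox regions differ between B6 and D2. It called 12 of 41 Hox regions, or 29.3%, against 49.3% of all 96291 tested regions. Of these, 6 were higher in D2 (background 24.3%) and 6 lower (background 25%), and the median Hox log2 fold change of 0.00 lay beside -0.01 over all regions. HoxA had 3 regions higher and 0 lower, HoxB 0 and 1, HoxC 1 and 5 and HoxD 2 and 0. Without B6 replicate 1, 7 regions were called, and DESeq2 also called 7.

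Past the Hoxc4 end of HoxC, an intergenic region starting 4423 bp from the Hoxc4 start (chr15:103038818-103043727) held 24.5, 22.3 and 25.7 CPM of H3K27ac in the B6 lines and 12.4, 11.9 and 11.2 in the D2 lines. Every D2 line lay below every B6 line, and the log2 fold change was -1.03 (SE 0.09, adjusted p = 6.9e-14). Its partner in the shared list starts at 103040972, just beyond the HoxC interval, and there the repeated libraries of D2 and B6 differed by -1.37 (adjusted p = 1.6e-09).

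Other HoxC regions fell in D2 as well. The broad region from Hoxc13 to Hoxc12 (chr15:102925586-102940758) held 98.1, 85.4 and 93.4 CPM in B6 and 77.4, 75.4 and 67.9 in D2, which do not overlap, with a log2 fold change of -0.33 (SE 0.07, adjusted p = 7.8e-05). An intron of Hoxc4, the gene at the anterior end of the cluster, held 3.31, 4.03 and 4.68 CPM in B6 and 2.25, 2.26 and 2.94 in D2 (chr15:103027070-103028162; log2 fold change -0.68, SE 0.19, adjusted p = 0.0020). A region 2571 bp from the Hoxc10 start (chr15:102963428-102964225) held 2.51, 1.57 and 2.47 CPM in B6 and 1.03, 1.1 and 1.73 in D2, which overlap, with a log2 fold change of -0.76 (SE 0.27, adjusted p = 0.015). This call was kept only without B6 replicate 2 or D2 replicate 3 when lines were left out in turn (adjusted p up to 0.087 in the other 4 fits), and was lost in DESeq2 (adjusted p = 0.069). The Hoxc4 promoter region fell by 0.36 on the log2 scale, and the promoter region of Hoxc13 at the opposite, posterior end was the HoxC region that rose, by 0.32 (adjusted p = 0.014 and 0.017).

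In HoxA, the posterior gene Hoxa10 carried 2 of the rising regions. Its promoter region (chr6:52234119-52235088) held 0.913, 1.76 and 1.39 CPM in B6 and 2.76, 1.54 and 3.05 in D2. The groups overlap through D2 replicate 2, and the log2 fold change was 0.85 (SE 0.27, adjusted p = 0.0063). The call was lost without B6 replicate 1 or D2 replicate 3 (adjusted p = 0.072 and 0.077). A region over a Hoxa10 coding exon as annotated, between the Hoxa10 and Hoxa11 starts (chr6:52240120-52241639), held 2.80, 2.96 and 3.73 CPM in B6 and 4.37, 5.07 and 5.65 in D2 without overlap and rose by 0.68 (SE 0.17, adjusted p = 0.00064). The promoter region of Hoxa5 rose by 0.46 (adjusted p = 0.014).

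The HoxB region called was intergenic, 4890 bp from the Hoxb13 start (chr11:96199206-96200851), with 6.39, 5.79 and 7.09 CPM in B6 and 3.53, 4.30 and 4.44 in D2. These groups do not overlap, and the region fell by 0.64 on the log2 scale (SE 0.15, adjusted p = 0.00028). In HoxD, a region over Hoxd3os1 and Hoxd4 exons (chr2:74711627-74712882) held 2.40, 2.96 and 3.17 CPM in B6 and 4.11, 3.97 and 3.63 in D2 and rose by 0.46 (SE 0.18, adjusted p = 0.027). Another, over Haglr, a noncoding gene between Hoxd3 and Hoxd1 (chr2:74752445-74754260), held 3.77, 3.40 and 2.79 CPM in B6 and 4.94, 5.40 and 4.09 in D2 and rose by 0.53 (SE 0.17, adjusted p = 0.0068).

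Of the 38 Hox genes, 13 had a promoter region (within 1 kb of the start) in the H3K27ac list of the separate lines. Those of Hoxa5, Hoxa10 and Hoxc13 rose in D2, those of Hoxc4 and Hoxc12 fell, and 8 were not called, beside 39.1% of all promoter regions called higher and 9.66% lower. Summed over these promoters, the level was 143 to 153 CPM in B6 and 129 to 141 in D2. The broad region at Hoxc12 held most of that sum, and without it the other 12 summed to 51.6 to 59.3 CPM in B6 and 56.8 to 63.4 in D2, which overlap. Over whole clusters, the summed H3K27ac of HoxC was 4.95, 4.75 and 5.02 CPM per kb in B6 and 4.10, 3.90 and 3.72 in D2, lower in every D2 line, with a log2 ratio of -0.33 ± 0.08 (SD, n = 3 per group). Of 15 HoxC regions, the broad region and the end region made up most of this fall, going from a mean of 116 CPM together in B6 to 85.4 in D2. The other 13 overlapped, with 44.6 to 52.7 CPM in B6 and 44.4 to 48.9 in D2 and a log2 ratio of -0.08. These 2 regions were singled out after their values were seen. HoxD was the reverse, with 2.22, 2.30 and 2.39 in B6 and 2.95, 3.23 and 2.76 in D2, and a log2 ratio of 0.37 ± 0.12. HoxA and HoxB overlapped between strains, with log2 ratios of 0.13 ± 0.12 and 0.01 ± 0.13. No test was made of these sums.

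In the repeated libraries, H3K27ac of the D2 line was higher than that of the B6 line over much of the Hox clusters. The comparison called 39 of 109 tested Hox regions, or 35.8%, against 28.1% of all 192158 tested regions. Of these, 38 were higher in D2 (background 14.7%) and 1 lower (background 13.4%), and the median Hox log2 fold change was 0.67 against -0.05 over all regions. HoxA had 12 higher of 27, HoxB 17 of 38, HoxC 6 higher and 1 lower of 23 and HoxD 3 of 21. Without B6 replicate 3, 24 regions were called, and DESeq2 called 17.

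Regions near gene starts and regions of a low level differ from the average region, so the same values were taken for them. Over all promoter regions the median log2 fold change was 0.40, and 43.3% were called higher, while over the 63633 regions whose level lay between the quartiles of the Hox regions (1.48 to 2.83 CPM per kb) the median was -0.09 and 7.77% were called higher. Hox promoter regions had a median of 0.63 with 14 of 43 called, all higher. Other Hox regions had a median of 0.72 with 25 of 66 called, 36.4% higher and 1.52% lower. Over all regions away from gene starts the median was -0.10, with 12.2% called higher and 14.2% lower. Regions within 200 kb of the clusters had medians of 0.10 around HoxA, 0.01 around HoxB, 0.05 around HoxC and 0.33 around HoxD, against 0.73, 0.78, 0.41 and 0.55 inside.

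**Figure D2:**
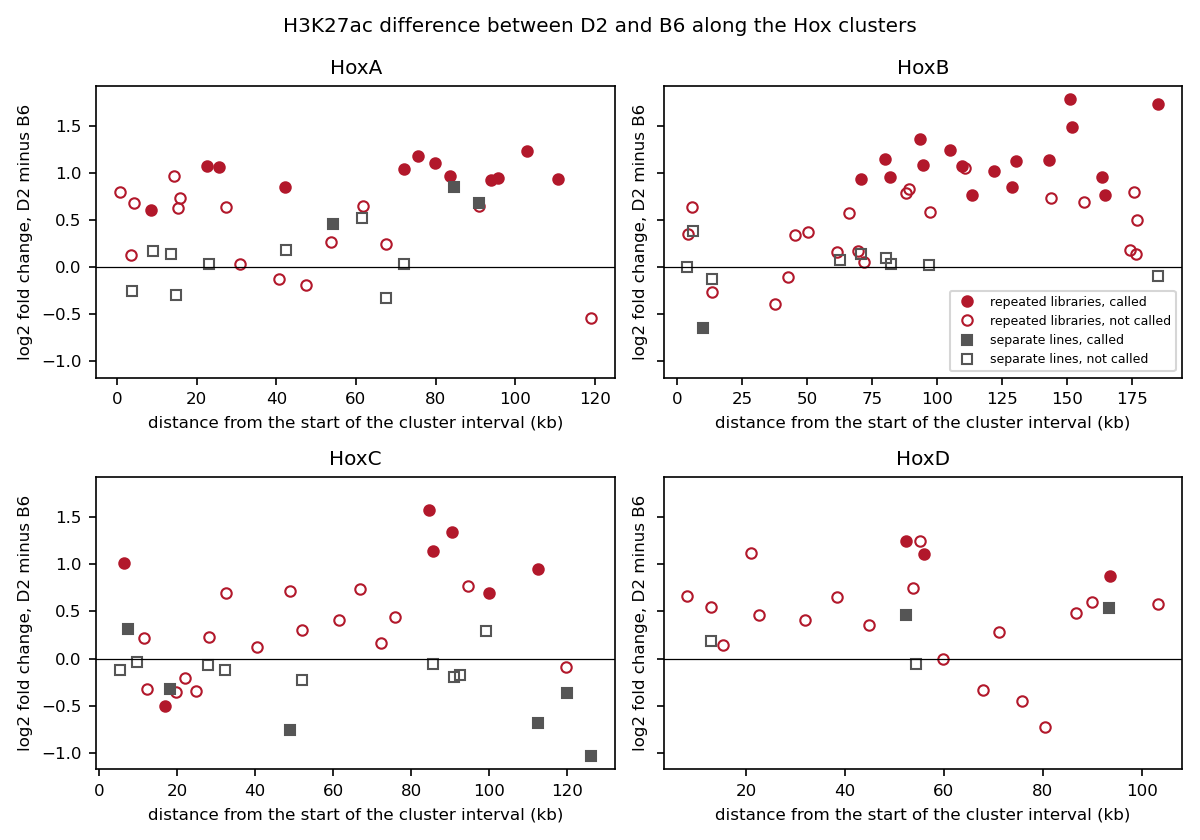
Log2 fold change of H3K27ac, D2 minus B6, for every tested Hox region against its distance from the start of the cluster interval, with called regions filled. Red circles (repeated libraries) lie mostly above 0 in all clusters, while grey squares (separate lines) scatter on both sides of 0 and fall to -1.03 at the end of HoxC.

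The largest rise was at Hoxb3, an anterior gene used in the hindbrain. A region over a Hoxb3 exon (chr11:96340636-96341050) held 0.622, 1.07 and 1.12 CPM in B6, 2.01, 1.29 and 1.91 in B6-13D2, 3.21, 3.41 and 3.12 in D2 and 2.13, 2.17 and 2.69 in D2-13B6. D2 was above every other library and B6 below every other one, and D2 minus B6 was 1.78 on the log2 scale (SE 0.32, adjusted p = 2.4e-05). Its neighbour (chr11:96341542-96342375) held 1.66, 2.04 and 2.13 CPM in B6 and 4.82, 6.02 and 5.43 in D2, a log2 fold change of 1.49 (SE 0.28, adjusted p = 4.8e-05).

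At the end of the HoxB interval, 8858 bp from the Hoxb1 start (chr11:96374610-96375371), B6 held 0.519, 0.582 and 0.448 CPM and D2 1.71, 1.59 and 1.97, a log2 fold change of 1.74 (SE 0.43, adjusted p = 0.0015). A region over the Hoxb8 coding exon (chr11:96282901-96283576) starts 996 bp past the Hoxb8 start. There B6 held 0.519, 0.874 and 0.672 CPM and D2 1.82, 1.82 and 1.73, a log2 fold change of 1.36 (SE 0.39, adjusted p = 0.0065), not called in DESeq2 (adjusted p = 0.082). Neither pair of groups overlaps, and both regions are low, so that a library holds few reads there.

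In HoxC the rise lay over introns shared by Hoxc5 and Hoxc6, genes of the trunk. The first region (chr15:102998847-103000283) held 3.32, 2.43 and 3.14 CPM in B6, 6.88, 5.08 and 6.81 in B6-13D2, 7.81, 8.41 and 10.6 in D2 and 2.54, 10.6 and 8.08 in D2-13B6. B6 lay below the B6-13D2 and D2 libraries, while in D2-13B6 replicate 1 was at the B6 level and the other two at the D2 level. D2 minus B6 was 1.58 (SE 0.28, adjusted p = 2.2e-05), not called in DESeq2 (adjusted p = 0.061). The second (chr15:103005288-103005880) held 1.66, 1.75 and 1.90 CPM in B6 and 5.14, 4.09 and 4.39 in D2, a log2 fold change of 1.34 (SE 0.31, adjusted p = 0.00075).

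Hoxc13, which is used at the tail end of the body and in hair follicles, differed between backgrounds at its start. Its promoter region (chr15:102920182-102922506) held 6.74, 7.28 and 6.94 CPM in B6, 5.45, 4.71 and 5.54 in B6-13D2, 15.6, 13.3 and 13.6 in D2 and 12.9, 13.6 and 14.8 in D2-13B6. Both lines of D2 background lay above both lines of B6 background in every library. The average of D2 and D2-13B6 exceeded that of B6 and B6-13D2 by 1.20 on the log2 scale (SE 0.12, adjusted p = 2.7e-11), and D2 minus B6 was 1.01 (SE 0.17, adjusted p = 6.9e-06).

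The region called lower lay 3994 bp from the Hoxc12 start and was the highest of HoxC (chr15:102930967-102932763), with 29.1, 29.3 and 30.5 CPM in B6, 24.9, 23.2 and 24.2 in B6-13D2, 22.4, 19.3 and 22.4 in D2 and 22.7, 23.9 and 23.0 in D2-13B6. B6 lay above all other lines, and D2 minus B6 was -0.50 (SE 0.14, adjusted p = 0.0043).

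**Figure D3:**
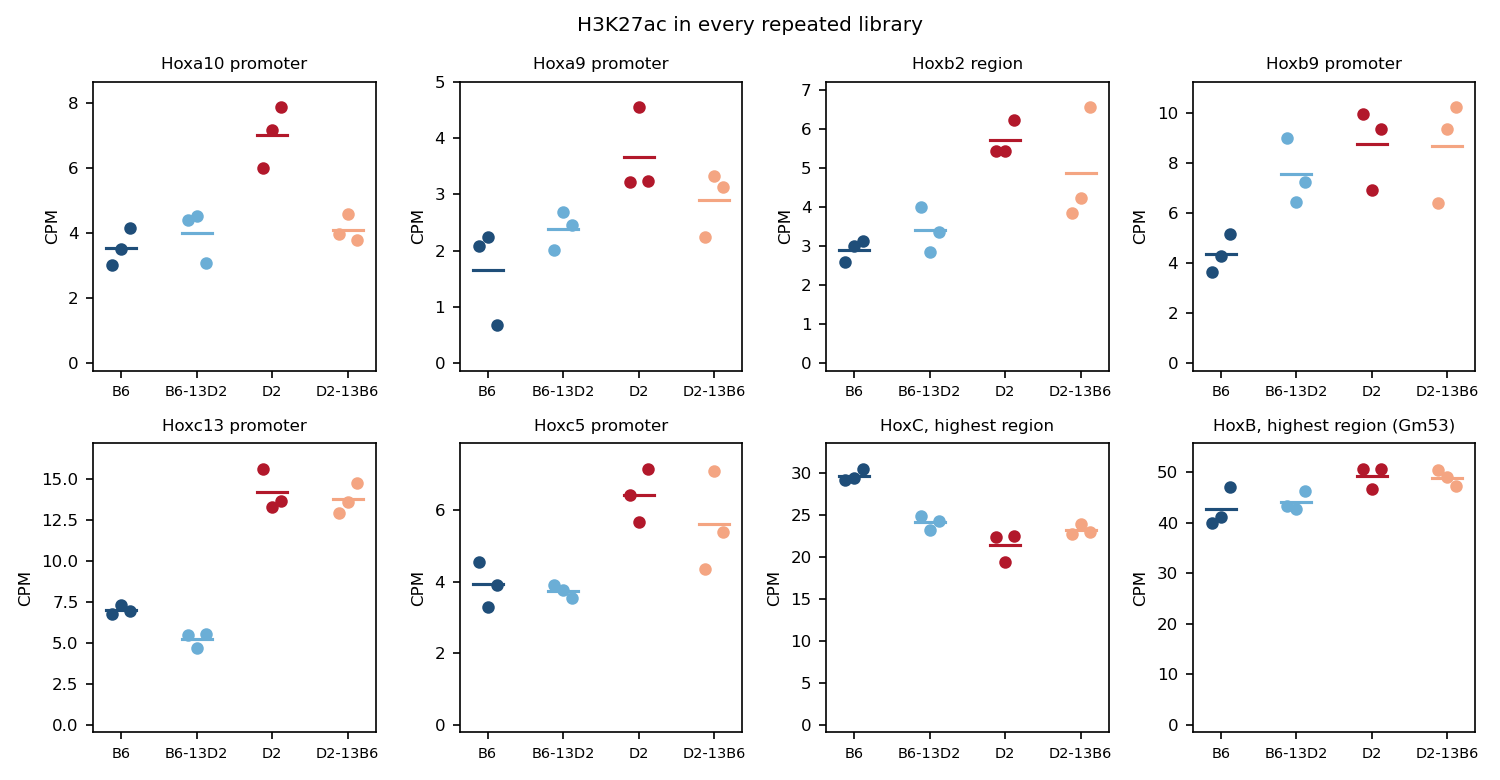
H3K27ac in CPM at 8 Hox regions in each repeated library (points) with the mean of each line (bar), on linear axes. At the Hoxc13 promoter the D2 and D2-13B6 libraries lie at 12.9 to 15.6 and the others at 4.71 to 7.28, while at the Hoxa10 promoter D2 alone lies at 5.99 or above.

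A promoter region was in the shared list for 35 of the 38 Hox genes, all but Hoxa6, Hoxb3 and Hoxd4, and each of the 35 was tested. In D2 minus B6, 13 were higher, 0 lower and 22 not called, with a median log2 fold change of 0.65. Over all promoter regions 43.3% were higher and 4.24% lower, so the Hox share called higher was not above that of promoters in general. The 13 were Hoxa4, Hoxb2 and Hoxb4 of 9 anterior genes (paralog groups up to 4), Hoxb5, Hoxb6, Hoxb8 and Hoxc5 of 10 central genes (groups 5 to 8) and Hoxa9, Hoxa10, Hoxa11, Hoxa13, Hoxb9 and Hoxc13 of 16 posterior genes (groups 9 to 13). Medians of the 3 classes were 0.80, 0.64 and 0.55, and no test of the difference between classes was made. Promoter regions of HoxD genes were absent from those called. The region counted for Hoxb8 lay in the gene body and reached the 1 kb window only at 996 bp past the start.

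Summed over the promoter regions of the Hox genes, H3K27ac was 73.8 to 81.2 CPM in B6, 73.4 to 78.1 in B6-13D2, 118 to 122 in D2 and 94.6 to 111 in D2-13B6. Promoter regions of 9 of 12 fibroblast markers were in the list, and their summed level was 18.0 to 20.5 CPM in B6, 31.3 to 35.9 in B6-13D2, 50.7 to 56.8 in D2 and 27.3 to 52.1 in D2-13B6, with none at 0 in any library. Of stem cell markers, 5 of 12 were called higher in D2 than in B6 and 0 lower. Of the fibroblast markers, 8 of 9 were called higher in D2 than in B6, with a median log2 fold change of 1.4 (Col1a2 1.74, Prrx1 1.67 and Twist1 1.53). In the separate lines 4 fibroblast markers had a region, the lowest adjusted p among them was 0.066 (Twist1) and their sum was 8.99 to 9.25 CPM in B6 and 9.15 to 11.4 in D2. Of trophoblast markers, 3 of 6 were called higher, with sums of 19.7 to 25.4 CPM in B6 and 34 to 40.2 in D2, and of markers of early differentiating cells 3 of 8, with sums of 21.7 to 24.4 and 34.1 to 35.7, beside 43.3% of all promoter regions. The separate lines had 2 of 4 trophoblast markers higher, with sums of 76.4 to 85.6 CPM in B6 and 88.7 to 90.4 in D2, and 5 of 8 early differentiation markers, with sums of 110 to 113 and 139 to 143, beside 39.1% of all promoter regions. The 4 primitive endoderm markers with a region had sums of 13.6 to 16.9 CPM over all repeated libraries. The part of other cell types in the Hox result was not tested, and in such bulk samples a few cells with much signal cannot be told apart from a small change in all cells.

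**Figure D4:**
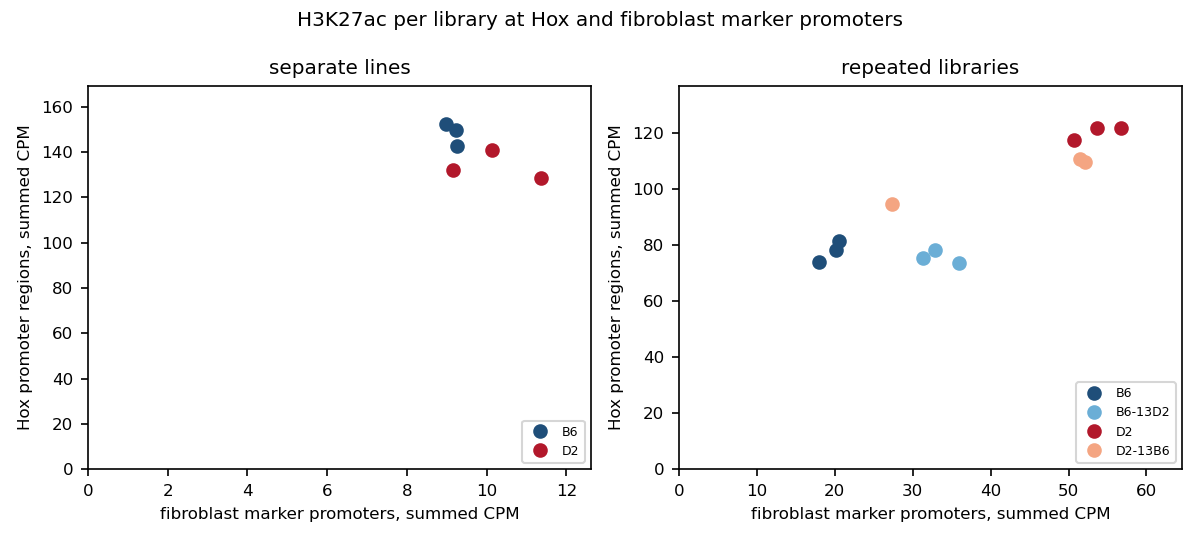
Summed H3K27ac in CPM at Hox promoter regions (vertical axis) against that at fibroblast marker promoters (horizontal axis), 1 point per library. In the repeated libraries B6 lies lowest on the fibroblast axis at 18.0 to 20.5 and D2 at 50.7 or above, and B6-13D2 lies above B6 on that axis but not on the Hox axis.

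Both series tested D2 minus B6 for H3K27ac, with different antibodies and with 1 line per strain in common, and 37 of the 41 regions of the separate lines overlapped a tested region of the shared list. The partner of a region was the tested one with the longest overlap. The sign was the same at 25 of the 37. Of the 12 called in the separate lines, 11 had such a partner, 9 of these had the same sign and 7 were called in both, 6 with the same sign. Besides the HoxC end region, these were Hoxa10 (0.85 and 0.96), Hoxc13 (0.32 and 1.01), the region between Hoxc13 and Hoxc12 (-0.33 and -0.50, where 5 further shared-list regions under the broad one were not called), the Hoxd4 exon region (0.46 and 1.25) and Haglr (0.53 and 0.87), all on the log2 scale. The Hoxc4 intron was called with opposite signs, -0.68 in the separate lines and 0.95 in the repeated libraries. Summed over clusters, the repeated libraries gave log2 ratios of 0.71 ± 0.07 (HoxA), 0.51 ± 0.10 (HoxB), 0.22 ± 0.12 (HoxC) and 0.55 ± 0.12 (HoxD, SD, n = 2 per group), and no D2 library overlapped a B6 library. The HoxC ratio was 0.087 with library totals and 0.17 to 0.34 when 1 library was left out.

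Each congenic line was compared with the parental line of its background. With 1 line per genotype, the chromosome 13 segment cannot be told apart from other differences between the lines. On the B6 background, the B6-13D2 line differed from B6 in H3K27ac at 9 of 109 Hox regions, or 8.26%, against 13% of all regions, with 6 higher (background 7.6%) and 3 lower (background 5.4%). With libraries scaled by their totals, 12 were called, 4 higher and 8 lower. Leaving out B6 replicate 2, B6 replicate 3 or B6-13D2 replicate 1 gave 4, 2 and 5 called regions, and leaving out D2-13B6 replicate 1 gave 18. DESeq2 called 0, and at an unadjusted p under 0.05 edgeR gave 29.

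Of the 6 regions that rose, 2 lay at the anterior edge of HoxA, beyond Hoxa2 and Hotairm1 (chr6:52153116-52153781 and chr6:52153890-52154559). The first held 3.11, 2.52 and 2.02 CPM in B6 and 5.07, 4.61 and 6.17 in B6-13D2, a log2 fold change of 1.04 (SE 0.26, adjusted p = 0.0039). The second held 1.45, 2.23 and 1.46 CPM in B6 and 3.06, 3.88 and 3.72 in B6-13D2, a log2 fold change of 1.06 (SE 0.27, adjusted p = 0.0054). Neither overlaps between lines, and in D2 they held 3.21, 2.84 and 2.2 CPM and 2.25, 3.18 and 2.77 CPM. The Hoxc5 and Hoxc6 intron region given above rose by 1.05 (SE 0.29, adjusted p = 0.011) and the Hoxb3 exon region (chr11:96341542-96342375) by 0.88 (SE 0.29, adjusted p = 0.036). The HoxA calls were lost without B6 replicate 3 (adjusted p = 0.069 and 0.066) and the HoxC call without B6 replicate 2 (adjusted p = 0.061). The Hoxb3 call was lost without any 1 B6 library, B6-13D2 replicate 1 or 3 or D2 replicate 2 (adjusted p up to 0.14).

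The 3 regions that fell were low or lay near Hoxc12. Past Hoxa13 (chr6:52268823-52269388), B6 held 8, 9 and 11 reads and B6-13D2 2, 4 and 1, or 0.830, 0.874 and 1.23 CPM against 0.191, 0.369 and 0.0908. The lines do not overlap, and the fitted log2 fold change of -2.12 rests on these few reads (SE 0.58, adjusted p = 0.0092). The region could be refitted in 7 of the 12 fits that left out 1 library, and was lost without B6 replicate 3 (adjusted p = 0.073). At the Hoxd3 coding exon (chr2:74746101-74747469), B6 held 0.830, 1.94 and 1.01 CPM and B6-13D2 0.956, 0.461 and 0.182, which overlap, a log2 fold change of -1.26 (SE 0.43, adjusted p = 0.043). This value rests on single libraries, from -0.81 without B6 replicate 2 to -1.97 without B6-13D2 replicate 1. The call was lost without B6 replicate 2 or 3, B6-13D2 replicate 2 or 3 or D2 replicate 2 (adjusted p up to 0.32). The third fell by 0.56 near Hoxc12 and is described with the interaction below. Of the promoter regions, that of Hoxb9 was the 1 of 35 called, higher by 0.75 (SE 0.22, adjusted p = 0.015), beside 5.64% of all promoter regions called higher and 3.61% lower. Of the 9 fibroblast markers, 2 were called higher in B6-13D2, with a median of 0.62. Of 6 trophoblast markers, 2 were higher and 1 lower, and their sums of 19.7 to 25.4 CPM in B6 and 31.0 to 36.1 in B6-13D2 did not overlap. The part of these markers in the Hox values was not tested.

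On the D2 background, D2 and D2-13B6 differed at 1 of 109 Hox regions, or 0.917%, against 6.67% of all regions, of which 1.44% were higher and 5.24% lower in D2. That region covered the Hoxa10 promoter (chr6:52231909-52235422), with 3.01, 3.49 and 4.14 CPM in B6, 4.40, 4.52 and 3.09 in B6-13D2, 5.99, 7.16 and 7.86 in D2 and 3.96, 4.58 and 3.77 in D2-13B6. D2 lay above all other lines, while the other 3 lines overlapped. D2 minus D2-13B6 was 0.78 (SE 0.21, adjusted p = 0.014), and D2 minus B6 was 0.96 (SE 0.22, adjusted p = 0.00049). Without D2 replicate 2 the call was lost and 0 regions were called, and without D2-13B6 replicate 1, 2 or 3 there were 2, 3 and 3. DESeq2 called 0, and at an unadjusted p under 0.05 there were 13. In HoxD the 2 contrasts of the segment had opposite signs. The summed H3K27ac was 1.08, 1.16 and 0.994 CPM per kb in B6, 0.874, 0.872 and 0.912 in B6-13D2, 1.70, 1.56 and 1.39 in D2 and 1.22, 1.22 and 1.24 in D2-13B6, so that both congenic lines lay below their parents.

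The interaction, the segment contrast on the B6 background minus that on the D2 background, was called at 1 of 109 regions, or 0.917%, against 5.3% of all regions (3.93% positive and 1.37% negative). It lay 1353 bp from the Hoxc12 start (chr15:102933956-102935404) and held 7.99, 9.41 and 9.07 CPM in B6, 5.64, 6.00 and 6.44 in B6-13D2, 8.24, 5.68 and 7.17 in D2 and 5.08, 5.15 and 5.17 in D2-13B6. Each congenic line lay below its parent in every library, and the interaction was -0.98 (SE 0.27, adjusted p = 0.022). The call of this region was lost without B6 replicate 3 or B6-13D2 replicate 2 (adjusted p = 0.13 and 0.15). Among the Hox regions, 14 were called without D2-13B6 replicate 1, 3 without D2-13B6 replicate 2, 2 without D2 replicate 1 and 0 without B6-13D2 replicate 2. DESeq2 called 0, and at an unadjusted p under 0.05 edgeR gave 16.

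The mean of the lines of D2 background was compared with that of the lines of B6 background, which share libraries with the contrasts above. It called 51 of 109 Hox regions, or 46.8%, against 38.1% of all regions, with 49 higher (background 20.3%) and 2 lower (background 17.8%). HoxA had 14 higher, HoxB 21 higher and 1 lower, HoxC 5 higher and 1 lower and HoxD 9 higher. Promoter regions of 18 of 35 Hox genes were called, all higher, while 57.6% of all promoter regions were called higher in this contrast. Among them were Hoxc13 at 1.20 and Hoxa2, an anterior gene of the hindbrain, at 1.15 (SE 0.31, adjusted p = 0.0023). At Hoxa2 the libraries held 1.24, 0.776 and 0.336 CPM in B6, 0.669, 0.369 and 0.363 in B6-13D2, 1.61, 1.59 and 1.39 in D2 and 1.12, 0.915 and 1.51 in D2-13B6, with some overlap between backgrounds. Of the 9 fibroblast markers, 7 were called higher in this contrast, with a median of 0.89. Of 8 markers of early differentiating cells, 6 were higher and 1 lower, with a median of 0.65, and the part of both lists in the Hox result was not tested. DESeq2 called 22, and without D2-13B6 replicate 1 edgeR called 56. Regions of chromosome 11 outside HoxB had a median of 0.23 in this contrast, against 0.00 over all regions and 0.59 in HoxB.

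H3K9me3 in the separate lines was called at 4 of 17 tested Hox regions, or 23.5%, against 34.7% of all 44797 tested regions. The rest of the 118 had too few reads to be tested, and since a region could pass through the strain in which it was high, these shares describe the tested regions and are no measure of the clusters. Of the 4, 2 were higher in D2 (background 17.3%) and 2 lower (background 17.4%). With no filter on low counts, 4 were called and all 4 were higher. With DESeq2, 2 were called, and none of the 17 reached a mean of 20 counts, so these calls rest on few reads. With libraries scaled by their totals, 5 were called, 4 higher and 1 lower.

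Hoxa13, the most posterior gene of HoxA, which patterns the digits and the urogenital tract, had almost no H3K9me3 reads at its start in B6. The region (chr6:52259785-52261476) held 0, 1 and 2 reads in the B6 lines and 13, 17 and 15 in the D2 lines, or 0, 1.09 and 2.05 CPM against 10.7, 10.6 and 11.3. All B6 lines are at or under 3 reads, so D2 was at least 3.43-fold higher when B6 is set to 3 reads per library. The region passed the filter on low counts through D2 alone (adjusted p = 5.3e-05), and it was also called with no filter. In the repeated libraries the same region held 11.6, 9.13 and 17.7 CPM in B6, 10.9 and 6.09 in B6-13D2, 17.9 and 21.7 in D2 and 21.6, 15.7 and 13.3 in D2-13B6, and the B6 line of these libraries is B6 replicate 3 of the separate lines, where it gave 2 reads. D2 lay above B6 in every library, but the D2 minus B6 log2 fold change of 0.63 was not called (SE 0.32, adjusted p = 0.21). The same region carried H3K27ac at 1.14, 1.26 and 1.23 CPM in B6 and 2.14, 2.05 and 2.89 in D2, a log2 fold change of 0.94 (SE 0.32, adjusted p = 0.024).

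Over the coding exon of Hoxb2, an anterior gene used in the hindbrain, the region that starts 890 bp from the Hoxb2 start (chr11:96352521-96353793) held 5, 4 and 5 reads in the B6 lines and 25, 37 and 20 in the D2 lines, or 5.28, 4.35 and 5.13 CPM against 20.6, 23.1 and 15.0. The strains do not overlap, and the log2 fold change was 1.98 (SE 0.37, adjusted p = 3.6e-05). This region too passed the filter through D2, and it was also called with no filter. In the repeated libraries it held 7.99, 13.7 and 12.5 CPM in B6, 13.7 and 13.5 in B6-13D2, 10.7 and 19.4 in D2 and 27.9, 12.7 and 16.9 in D2-13B6, all lines overlapping, with D2 minus B6 at 0.43 (SE 0.35, adjusted p = 0.49). H3K27ac of this region was 2.59, 3.01 and 3.14 CPM in B6 and 5.46, 5.45 and 6.24 in D2 and was called (log2 fold change 0.96, SE 0.23, adjusted p = 0.0014).

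The regions that fell in D2 were in HoxD. Over the Hoxd4 coding exon (chr2:74727009-74728785), the lines held 12.7, 16.3 and 10.3 CPM in B6 and 8.23, 5.61 and 3.76 in D2, a log2 fold change of -1.16 (SE 0.38, adjusted p = 0.016). In an intron of Hoxd3 (chr2:74735056-74736320), they held 9.51, 10.9 and 14.4 CPM in B6 and 6.58, 4.37 and 5.26 in D2, a log2 fold change of -1.11 (SE 0.40, adjusted p = 0.025). Neither pair overlaps, and in the repeated libraries D2 minus B6 was 0.02 and -0.60, not called (adjusted p = 0.98 and 0.31). Both regions passed the filter through B6, and with no filter both calls were lost (adjusted p = 0.081 for Hoxd4 and 0.13 for Hoxd3). The call of the Hoxd3 intron was kept in 2 of the 6 fits that each left out 1 line, and that of Hoxd4 in 3 of 6.

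**Figure D5:**
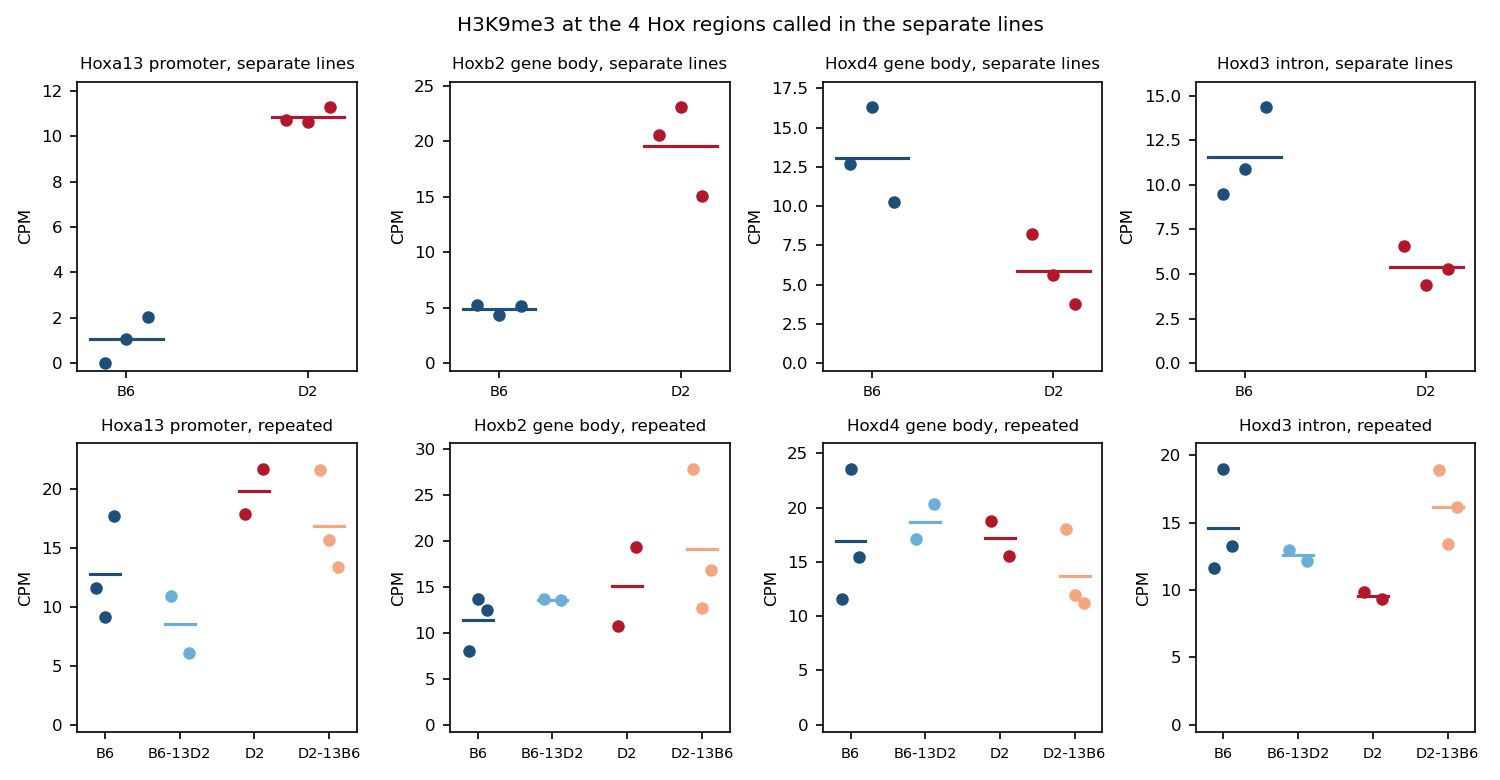
H3K9me3 in CPM at the 4 Hox regions called in the separate lines, for each library of the separate lines (top) and of the repeated libraries (bottom), with group means as bars. B6 and D2 lines do not overlap in the top row, with Hoxa13 at 0 to 2.05 against 10.6 to 11.3, while those of Hoxb2 and Hoxd4 overlap in the bottom row.

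In the repeated libraries, 0 of 93 tested Hox regions were called for H3K9me3 in edgeR between B6-13D2 and B6 (background 1.69%), between D2 and D2-13B6 (background 2.2%), between D2 and B6 (background 11.3%) and in the interaction (background 0.389%). Higher and lower calls made up 1.23% and 0.458% of all regions in the first contrast, 1.81% and 0.395% in the next, 4.58% and 6.76% in D2 minus B6 and 0.0737% and 0.315% in the interaction. At an unadjusted p under 0.05 there were 3, 8, 8 and 3, and DESeq2 called 0 in each. The contrast of backgrounds called 6 of 93, or 6.45%, against 26.1% of all regions, all 6 higher with the D2 background (over all regions 11.4% higher and 14.7% lower). DESeq2 called 1, as did edgeR with no filter, while library totals and a minimum mean of 20 counts each gave 11. Leaving out B6-13D2 replicate 2, D2 replicate 1 or D2 replicate 2 left 2, 2 and 3.

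The region with the strongest such difference lay 746 bp from the Hoxd12 start (chr2:74673854-74674267), with 7.99, 11.4 and 8.10 CPM in B6, 5.47 and 4.74 in B6-13D2, 15.2 and 15.5 in D2 and 18.9, 14.2 and 7.73 in D2-13B6. All but 1 library of D2 background lay above those of B6 background, and the log2 difference was 1.05 (SE 0.28, adjusted p = 0.0019). The region at Hoxa13 was again among them, at 0.79 (SE 0.24, adjusted p = 0.0078), and was lost without B6-13D2 replicate 2 or D2 replicate 2 (adjusted p = 0.17 and 0.11). That call was also lost in DESeq2 and with no filter (adjusted p up to 0.091), while the Hoxd12 region was kept in both. The other 4 were in HoxB, at log2 differences of 0.72 to 0.93: over Gm53, over the Hoxb8 coding exon, and in intergenic DNA near Hoxb13 and between Hoxb13 and Hoxb9. None of these 4 was called in DESeq2, with no filter or in every fit that left out 1 of the 10 libraries. The Gm53 call was kept in 1 of 10, without D2-13B6 replicate 1 (adjusted p up to 0.38 in the others). That of the Hoxb8 exon was lost without B6 replicate 1 or 2, B6-13D2 replicate 1, D2 replicate 1 or D2-13B6 replicate 2. Its log2 difference of 0.79 fell to 0.33 without D2 replicate 1 (adjusted p = 0.58) and to 0.50 without B6-13D2 replicate 1. The region near Hoxb13 was lost without B6-13D2 replicate 2 or either D2 library, and the other without B6 replicate 3, either B6-13D2 library or D2 replicate 1. The rest of chromosome 11 had a median of 0.48 in this contrast, with 2164 of 6671 regions called, beside 0.37 in HoxB and 0.04 over all regions.

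HoxB was the cluster in which H3K9me3 of a whole line stood apart. Its summed level was 10.5, 9.79 and 10.5 CPM per kb in B6, 9.50 and 10.2 in B6-13D2, 11.4 and 11.5 in D2 and 19.0, 14.3 and 14.1 in D2-13B6, highest in all 3 D2-13B6 libraries. Of 32 tested HoxB regions, 31 had a negative D2 minus D2-13B6 difference, with a median of -0.48. Beside it, the rest of chromosome 11 had a median of -0.49 over 6671 regions outside HoxB, and its part in the HoxB value was not tested. For H3K27ac the rest of chromosome 11 had a median of -0.29 in this contrast and HoxB one of 0.06.

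The summed H3K9me3 of the other clusters overlapped between the repeated B6 line and each other line, while B6-13D2 lay below D2 without overlap in HoxA and HoxD and above D2-13B6 in HoxC. In the separate lines the sums were higher in D2 than in B6 without overlap in HoxB, with 4.41, 4.25 and 3.74 CPM per kb against 5.95, 5.44 and 4.74, and in HoxD, with 4.35, 4.59 and 4.26 against 5.86, 5.75 and 4.69. The D2 libraries of that table were also the deeper ones, with totals from 1981703 against at most 1687002 in B6, and the part of depth in these sums was not tested.

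The clusters also hold microRNA genes, in mouse miR-10a (HoxB), miR-10b (HoxD), miR-196a (HoxB and HoxC) and miR-196b (HoxA), which target Hox transcripts. Their mature sequences are printed with the seed, bases 2 to 8, in capitals because 2 seeds are shared across clusters.
miR-10a-5p: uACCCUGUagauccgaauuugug
miR-10b-5p: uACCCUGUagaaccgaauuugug
miR-196a-5p: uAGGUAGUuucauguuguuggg
miR-196b-5p: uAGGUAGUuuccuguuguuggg

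Of 13 noncoding genes of the clusters, 8 had a promoter region in the repeated libraries, and 6 were called higher in D2 than in B6 and 0 lower, beside 43.3% and 4.24% of all promoter regions. Mir196b rose by 1.1 (SE 0.30, adjusted p = 0.0037), Halr1, a long noncoding RNA upstream of HoxA, by 1.05 (SE 0.15, adjusted p = 1.6e-07) and Hotairm1 by 0.61. Regions of Mir10a, Mir615 and Hoxb5os are also the promoter regions of Hoxb4, Hoxc5 and Hoxb5, so they add no separate values. In the separate lines 1 of 4 was called, Halr1, higher by 0.32 (SE 0.08, adjusted p = 0.0012), beside 39.1% of all promoter regions called higher and 9.66% lower.

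Proteins that act on or with Hox genes were read in the same fits. Of 30 Polycomb genes with a promoter region in the repeated libraries, 21 were higher in D2 than in B6 and 1 lower, with a median of 0.61. Cbx2, a chromobox subunit that binds the repressive H3K27me3 mark, was higher by 1.31 (SE 0.22, adjusted p = 1.0e-05). Among the separate lines 13 of 31 were higher and 5 lower with a median of 0.13, including Bmi1 at 0.87 (SE 0.16, adjusted p = 1.3e-05) and Kdm2b, which recruits a Polycomb complex to CpG islands, at -0.40 (SE 0.07, adjusted p = 1.2e-06). Of trithorax genes, which oppose Polycomb, 6 of 9 were higher in the repeated libraries, with Kmt2a at 0.74 (SE 0.14), and 3 of 10 in the separate lines. These counts stand beside 43.3% of all promoter regions called higher and 4.24% lower in the repeated libraries, and 39.1% and 9.66% in the separate lines.

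For the cofactors and inducers of Hox genes the same shares apply, 43.3% higher and 4.24% lower in the repeated libraries and 39.1% and 9.66% in the separate lines. TALE cofactors, which bind DNA together with Hox proteins, were higher for 4 of 9 genes in the repeated libraries, with Meis1 at 1.31 (SE 0.18, adjusted p = 7.8e-08) and Pbx3 at 1.24 (SE 0.17, adjusted p = 1.2e-07). Among separate lines 3 of 9 were higher and 2 lower, with Meis3 at 0.66 and Pknox2 at -0.40. Among inducers of Hox expression, 5 of 15 were higher and 1 lower in the repeated libraries, with the retinoid receptor gene Rxra at 1.63 (SE 0.25, adjusted p = 9.5e-07) and the caudal gene Cdx2 at 1.22 (SE 0.19, adjusted p = 1.6e-06). The separate lines had 6 of 13 higher and 2 lower, with Cdx2 at 0.40 (SE 0.10) and Cdx1 at -0.48 (SE 0.10).

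Genes that flank the clusters were read in the same way. Of 18 neighbours, 5 were higher and 2 lower in D2 than in B6 in the repeated libraries, where 43.3% of all promoter regions were higher and 4.24% lower. Of 16 in the separate lines, 4 were higher and 3 lower, beside 39.1% and 9.66% of all promoter regions, and their difference from the Hox genes was not tested. Calcoco2 and Ttll6, on the Hoxb13 side of HoxB, were lower in both, at -1.01 and -0.99 in the repeated libraries and -0.54 and -0.45 in the separate lines. Evx1, a homeobox gene next to Hoxa13, was higher by 0.56 (SE 0.12, adjusted p = 0.00011) in the separate lines. Of 16 other developmental regulators, 3 were higher and 1 lower in the repeated libraries, with Olig2 at -2.41 (SE 0.21, adjusted p = 1.3e-12) and En2 at 1.20 (SE 0.20, adjusted p = 5.5e-06), and in the separate lines they were at -1.53 and 0.78.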

How the data were processed

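H3K9me3 and H3K27ac were profiled by chromatin immunoprecipitation of MNase-treated, formaldehyde-fixed chromatin with 75 bp reads, per the labels' protocols. The authors deposited 4 tables of read counts per region, with duplicates removed per the file headers, on mm10 (GRCm38). The submitters' processing notes name Trimmomatic 0.39, HISAT2 2.2.1, MACS 1.4.2, bedtools 2.9.2 and edgeR without roles. Over all tables, 2 columns without a matching sample were not used.

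Counts of all regions were tested in edgeR 4.0.16 (R 4.3.3; TMM, filterByExpr with a minimum count of 10 and total of 15, quasi-likelihood test, two-sided, Benjamini-Hochberg), with all groups of a table in 1 fit. Library pairs with a chi-square per degree of freedom below 1 were merged. A promoter region overlapped 1 kb on either side of a GENCODE M21 gene start and had the highest mean count. Named regions were those called with the largest absolute log2 fold change, up to 6 per contrast, the region with most signal per kb in each cluster, and member promoters. The members and gene lists were chosen with earlier results of these data known. The test was checked on simulated counts. Alternatives were other scalings, filters, DESeq2 1.42.0, unmerged libraries, fewer groups, a replicate block and left-out libraries. Intervals between libraries of 1 line cover technical spread only.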

Additional observations from a re-analysis of the deposited data

Results flagged for a closer look

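At the HoxC region near Hoxc12 (chr15:102933956-102935404), the segment contrast of H3K27ac differed between backgrounds by a test of the interaction, with a log2 value of -0.984 (edgeR's quasi-likelihood test, adjusted p = 0.022). The call was lost with no filter on low counts, in DESeq2 (adjusted p = 0.116) and without B6 replicate 3 or B6-13D2 replicate 2 (adjusted p up to 0.154). The libraries of both congenic lines lay below those of their parents there.

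Summed over HoxC, H3K27ac moved in opposite directions in the strain contrasts of the 2 series, with a log2 ratio of -0.328 in the separate lines and 0.219 in the repeated libraries, and no D2 library overlapped a B6 library in either. The lines present in both series, B6 replicate 3 and D2 replicate 2 of the separate lines, held 5.02 and 3.90 CPM per kb there, so D2 was lower in those lines too. Of the fall in the separate lines most came from the broad region at Hoxc12 and the end region, and the partner of the end region, which was also lower in D2, starts outside the HoxC interval and is not in the repeated sum. The other 13 regions had a log2 ratio of -0.08. The difference between series was not tested, and it cannot be told apart from that between antibodies, region lists and lines.

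Summed over HoxD, the contrast of the D2 with the B6 segment was -0.261 on the B6 background and 0.342 on the D2 background, with no overlap in either. This difference was not tested.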

How the results depend on the processing

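Alternatives were compared for 36 log2 fold changes, those of the called regions with the largest values per contrast, and 0 changed sign. Refitted values of other named regions and promoters were not compared, so that count does not cover them. Among summed ratios, which have no test, some near 0 did: HoxB in the separate lines (down to -0.042), and without D2-13B6 replicate 1 D2 minus D2-13B6 in HoxB (-0.041) and HoxC (-0.062); HoxC for B6-13D2 minus B6 is given below. Counts of called Hox regions moved as follows. With DESeq2 they were 2 (H3K9me3) and 7 (H3K27ac) in the separate lines; in the repeated libraries 1 for the H3K9me3 contrast of backgrounds, and for H3K27ac 0 between B6-13D2 and B6, 0 between D2 and D2-13B6, 17 between D2 and B6, 22 for backgrounds and 0 for the interaction. With a minimum mean of 20 counts, H3K9me3 gave 0 in the separate lines, 1 between D2 and D2-13B6, 5 between D2 and B6 and 11 for backgrounds, and H3K27ac 2 between D2 and D2-13B6 and 4 for the interaction. With no filter, the H3K9me3 contrast of backgrounds gave 1 and the H3K27ac interaction 0. With library totals, H3K9me3 gave 1 between D2 and B6 and 11 for backgrounds, and the H3K27ac interaction gave 6. With only the groups compared, H3K9me3 D2 against B6 gave 3 and H3K27ac B6-13D2 against B6 gave 24. With no libraries merged, H3K27ac gave 21, 3 and 9 for B6-13D2 against B6, D2 against D2-13B6 and the interaction. The causes were not tested.

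Replicate numbers did not pair the libraries, since correlations of same-numbered deviations were -0.0563 to 0.162. A replicate block gave 20, 3 and 9 calls for the same 3 contrasts and 43 for D2 against B6.

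Leaving out each library in turn gave 3 to 6 calls for H3K9me3 and 7 to 13 for H3K27ac in the separate lines. In the repeated H3K9me3 libraries it gave 0 to 1 between D2 and D2-13B6, 0 to 1 between D2 and B6 and 2 to 7 for backgrounds. In H3K27ac it gave 2 to 18 (B6-13D2 against B6), 0 to 3 (D2 against D2-13B6), 24 to 52 (D2 against B6), 40 to 56 (backgrounds) and 0 to 14 (interaction).

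Library totals moved the median of all regions in H3K27ac D2 minus B6 from -0.05 to -0.20 and that of Hox regions from 0.67 to 0.51. They moved summed H3K27ac log2 ratios to 0.10 (HoxA), 0.079 (HoxB), -0.21 (HoxC) and -0.39 (HoxD) for B6-13D2 minus B6, to 0.59 (HoxA), 0.38 (HoxB), 0.087 (HoxC) and 0.42 (HoxD) for D2 minus B6, and to 0.40 and 0.42 in HoxD for D2 minus D2-13B6 and for backgrounds. Leaving out libraries gave 0.19 to 0.32 (HoxA), 0.15 to 0.37 (HoxB) and -0.10 to 0.0037 (HoxC) for B6-13D2 minus B6, 0.62 to 0.73 in HoxA for D2 minus B6, and 0.28 to 0.43 and 0.45 to 0.55 in HoxD for D2 minus D2-13B6 and for backgrounds. Low counts limit H3K9me3, where few Hox regions of the separate lines could be tested.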
